A study of Mus musculus with 2 samples.

Results

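The Reg (regenerating) genes encode small secreted proteins built around a single C-type lectin domain, and all 7 mouse members on the array (Reg1, Reg2, Reg3a, Reg3b, Reg3d, Reg3g and Reg4) were followed here, out of 18193 named genes. The members were listed by name, with the results of these arrays already known, and 8 probe sets (groups of short probes against the same transcript) report them. The samples were livers of C57BL/6J mice aged 2 months, taken 3 days after tail vein injection of 1000000000 plaque-forming units of adenovirus per mouse. One group received an empty vector (Ad-control, 4 mice) and the other a vector carrying PDK4, a kinase that inactivates the pyruvate dehydrogenase complex (Ad-PDK4, 3 mice). All mice of both groups carried adenovirus, and no uninfected group was used here. The tissue of each group was pooled and gave 1 array, so n = 1 per group, the spread between mice was not measured and no difference below has a test. The number of arrays limits the precision, and every value describes these 2 pools.

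In mouse, Reg1 and Reg2 are products of the acinar cells of the exocrine pancreas, which also make the digestive enzymes. The Reg3 proteins are made by pancreas and gut epithelium, are induced by injury and inflammation, and bind bacterial surfaces. Cytokines that signal through STAT3, such as interleukin 6 and interleukin 22, are known inducers of Reg genes, and healthy liver expresses them at low levels.

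In the pool labelled Ad-PDK4, Reg1 and Reg2 were about an order of magnitude brighter than in the pool labelled Ad-control. By the probe set used for each gene, Reg3d and Reg3b were about 2-fold brighter there, and Reg4 was not brighter. Reg3a and Reg3g were too dim in either pool for a difference. Reg1 differed by 9.51-fold, Reg2 by 12.8-fold, Reg3d by 2.21-fold and Reg3b by 2.06-fold (n = 1 per group). A second probe set for Reg3b gave at least 3.53-fold. Reg4 differed by -0.22 on the log2 scale. The family therefore did not differ between the pools as a block.

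Of the members, 6 lie together in the mouse genome. In the RefSeq table for GRCm38.p6, the order along chromosome 6 is Reg3b, Reg3d, Reg3a, Reg2, Reg1 and Reg3g, with 1 other gene, a pseudogene, and no (0) other protein-coding gene between them. Reg4 lies apart on chromosome 3. The members with the largest differences, Reg2 and Reg1, are neighbours in this cluster, and the dimmest members, Reg3a and Reg3g, lie on either side of that pair. The neighbours Reg3b and Reg3d, at the other end, had smaller differences by the probe set used for each. The other probe set of Reg3b gave only a bound of at least 3.53-fold, so the place of Reg3b is not settled.

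The 250 bases before the RefSeq transcript start are shown for Reg1 and Reg2, the pair with the largest differences. They are also shown for Reg3b, with a smaller difference by the probe set used, and for Reg4, which was not higher. Sequences are from RefSeq (GRCm38.p6), 5′ to 3′ on the strand of the gene, which is the plus strand for these 4 genes. Capitals mark matches to 4 motifs. The core promoter motif TATAAA was searched on the strand of the gene and is called the TATA box below. The other 3 were searched on both strands. They were CACCTG, an E-box of the kind bound by the acinar factor PTF1A, the box TGGGAA bound by RBPJ and RBPJL, and TTCNNNGAA, the letters of a STAT site.
Reg1, chr6:78425733-78425982: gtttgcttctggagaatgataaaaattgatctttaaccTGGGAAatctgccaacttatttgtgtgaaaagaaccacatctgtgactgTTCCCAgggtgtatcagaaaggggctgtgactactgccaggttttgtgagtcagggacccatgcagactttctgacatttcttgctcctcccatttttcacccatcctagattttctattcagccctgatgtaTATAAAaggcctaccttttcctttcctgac
Reg2, chr6:78404905-78405154: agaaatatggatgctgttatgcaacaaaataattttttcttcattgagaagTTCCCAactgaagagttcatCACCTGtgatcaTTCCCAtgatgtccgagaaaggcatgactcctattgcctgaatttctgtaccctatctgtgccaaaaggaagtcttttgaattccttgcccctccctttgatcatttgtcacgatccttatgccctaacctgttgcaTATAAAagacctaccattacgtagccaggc
Reg3b, chr6:78370635-78370884: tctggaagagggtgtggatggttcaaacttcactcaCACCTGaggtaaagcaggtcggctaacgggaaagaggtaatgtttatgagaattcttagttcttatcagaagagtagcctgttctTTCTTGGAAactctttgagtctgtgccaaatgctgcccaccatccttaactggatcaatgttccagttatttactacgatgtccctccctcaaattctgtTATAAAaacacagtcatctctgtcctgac
Reg4, chr3:98221906-98222155: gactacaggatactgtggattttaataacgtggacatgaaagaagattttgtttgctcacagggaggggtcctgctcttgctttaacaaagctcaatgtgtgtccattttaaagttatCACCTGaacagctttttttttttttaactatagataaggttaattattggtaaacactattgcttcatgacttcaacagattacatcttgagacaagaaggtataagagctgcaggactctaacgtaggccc

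Reg1 and Reg2 shared the layout of a TATA box 30 bases before the start and a pair of RBPJ boxes further upstream. This layout was not particular to them. Reg3g, under the floor in both pools, had a TATA box at -27 and RBPJ boxes at -247 and -124. The RBPJ boxes began at -212 and -163 in Reg1 and at -199 and -167 in Reg2, and Reg2 also had an E-box at -179. The window of Reg3b held a TATA box at -29, an E-box at -214 and a STAT site at -129. The window of Reg4 held an E-box at -132 and no (0) match to the other motifs. Over all 7 members, 4 windows held a TATA box, against 7.59% of 32851 mouse promoter windows of the same length. An E-box was found in 5 of 7 (17.2% of all), an RBPJ box in 5 of 7 (21.6%) and a STAT site in 2 of 7 (7.02%). In Reg3d the STAT site at -238 overlapped an RBPJ box. A match is a description of the letters in this window and does not show that a factor binds.

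**Figure D1:**
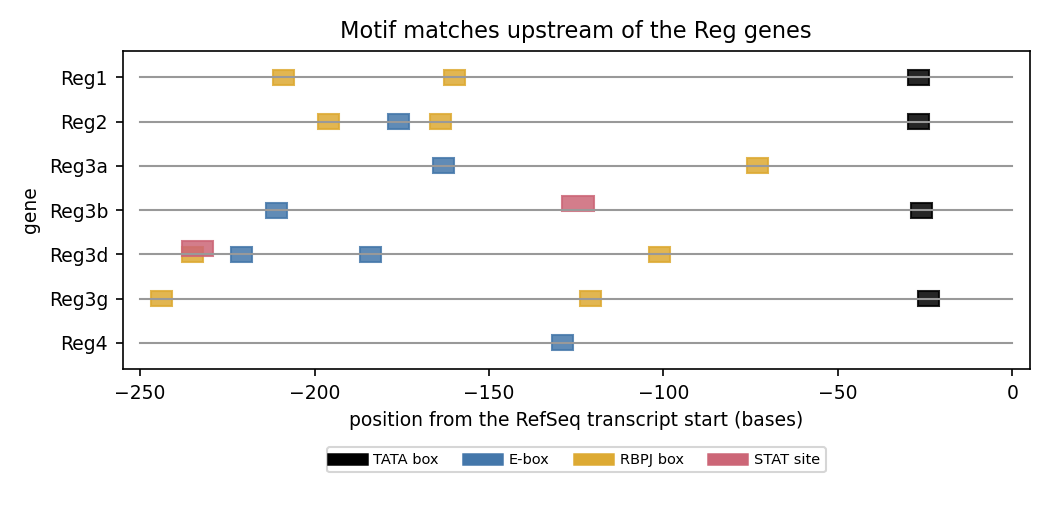
Matches to 4 motifs in the 250 bases before the RefSeq transcript start of each Reg gene (horizontal axis, bases from the start; 1 line per gene). Coloured blocks are drawn to scale and raised where a STAT site overlaps an RBPJ box; Reg1 and Reg2 have TATA boxes at the same distance, and Reg4 has only an E-box.

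The upstream windows resembled each other unevenly. In global alignments, Reg3b and Reg3g were identical at 173 of 250 bases (69.2%), the highest share among the members, although their signals lay on different sides of the floor described below. Reg1 and Reg2 were identical at 59.6% of bases. Windows aligned with that of Reg4 were identical at 45.6% (Reg3a) to 52.4% (Reg1), a level also reached between members of the cluster such as Reg2 and Reg3d (49.2%).

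Signal on these arrays is a linear intensity in array units. A floor, the median signal of all probe sets that are not controls, was set for each array, 93.4 for Ad-control and 99.9 for Ad-PDK4, and a signal under it was treated as too dim to measure. Differences are log2 of Ad-PDK4 over Ad-control, centred on the median probe set. The only available error scale was how far the log2 differences of probe sets for 1 gene lay from each other. Its SD was 0.35 over 4326 genes, and it leaves out the variation between mice and between arrays.

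The genes of the study's own intervention and tissue were examined first. Pdk4 had a signal of 234 in the Ad-control pool and 177 in the Ad-PDK4 pool, a log2 difference of -0.39, so the arrays do not show its overexpression. It was not tested whether its probe set reads the transcript of the vector, and the directions given here take the labels as correct. The hepatocyte markers Alb, Apoa1 and Ttr lay between 97338 and 110783 in both pools, so the defining markers of the labelled tissue were bright. As a check of RNA integrity, the ratio of 3' to 5' signal of beta-actin was 4.88 in the Ad-control pool and 5.46 in the Ad-PDK4 pool, and that of Gapdh 0.785 and 0.806. The 24 poly-A spike-in probe sets had a median log2 difference of -0.54, so any log2 difference between -0.54 and 0 changes sign if the spike-ins are taken as reference.

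Reg1, also called pancreatic stone protein or lithostathine, was the brightest member in both pools. A single probe set read it, with a signal of 323 in the Ad-control pool and 3044 in the Ad-PDK4 pool, a log2 difference of 3.25. In the Ad-control pool this signal exceeded 72.0% of all probe sets that are not controls, and in the Ad-PDK4 pool 94.3%. Among the 10389 genes above the floor on both arrays, Reg1 had the 13th highest log2 difference.

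Reg2, the closest relative of Reg1 in mouse, had the larger difference. The 1 probe set for it had a signal of 199 in the Ad-control pool and 2530 in the Ad-PDK4 pool, a log2 difference of 3.68. Its signal moved from above 64.5% of probe sets to above 93.3%, and its log2 difference was the 6th highest among the genes above the floor on both arrays. The log2 differences of Reg2 and Reg1 lay 0.43 apart, a little more than the probe set SD. Because the Ad-control signal of Reg2 was only moderately above the floor, its fold depends on where the floor is set. A floor at the 70th percentile of each array leaves Reg2 with a bound of 3.18 on the log2 scale.

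Reg3b, also known as pancreatitis-associated protein, was read by 2 probe sets that gave different sizes. The first carries the suffix _s_at, which marks probes that can match several transcripts, and gave a signal of 97 in the Ad-control pool and 197.9 in the Ad-PDK4 pool. Its log2 difference was 1.04. The second, without that suffix, gave 29.2 and 326. Its Ad-control signal was under the floor, so its difference is a bound of at least 3.53-fold. The 2 probe sets thus had the same direction in these pools, and their log2 differences of 1.04 and at least 1.82 lay further apart than the probe set SD.

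Reg3d, related to the islet neogenesis-associated protein INGAP, gave a signal of 100.1 in the Ad-control pool and 219 in the Ad-PDK4 pool. The log2 difference was 1.14. Both Reg3b and Reg3d were barely above the floor in the Ad-control pool, at 97 and 100.1 against 93.4. Genes this dim scatter widely. Over the 500 genes of closest mean signal, the SD of the log2 difference was 0.51 around Reg3d and 0.49 around Reg3b, and 4.8% and 2.6% of those genes were at least 2-fold higher. The corresponding shares were 1.4% around Reg2 and 1% around Reg1. With quantile normalization or loess centring Reg3b fell short of 2-fold, at 0.98 with either.

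Reg3a and Reg3g were under the floor in both pools. Reg3a had a signal of 2.5 in the Ad-control pool and 36.2 in the Ad-PDK4 pool. Reg3g, the bactericidal lectin of the small intestine, had 2.0 and 7.6. Values under the floor have no order here and no fold is given.

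Reg4, a member made by gut epithelium, gave a signal of 153 in the Ad-control pool and 130.3 in the Ad-PDK4 pool. Its log2 difference of -0.22 was smaller than the probe set SD and had rank 7794 of 10389 from the top. It became 0.32 when the differences were centred on the spike-ins, so its direction is not settled. Reg4 is the member outside the cluster on chromosome 6 and the only one of the 8 probe sets with the lower signal in the Ad-PDK4 pool.

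**Figure D2:**
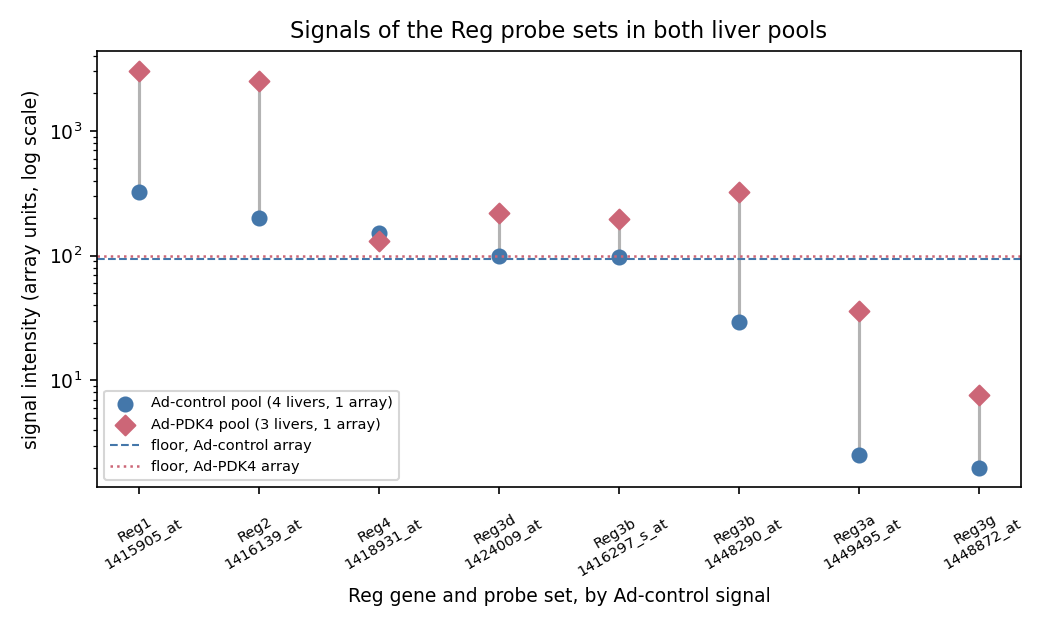
Signal intensity (vertical axis, array units, log scale) of the 8 Reg probe sets in the Ad-control pool (circles) and the Ad-PDK4 pool (diamonds), ordered by Ad-control signal, with the floor of each array as a horizontal line. Each point is 1 array, so there are no error bars; Reg1 and Reg2 stand apart in the Ad-PDK4 pool, Reg4 has almost the same signal in both, and Reg3a and Reg3g stay under the floors.

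The order of signal within each pool had Reg1 and Reg2 first in both and differed below them. Probe sets differ in how strongly they bind, so the order is one of signal and not of transcript number. Among signals above the floor, the order in the Ad-control pool was Reg1, Reg2, Reg4, Reg3d and Reg3b (its _s_at probe set). In the Ad-PDK4 pool it was Reg1, Reg2, Reg3b (the other probe set), Reg3d, Reg3b (its _s_at probe set) and Reg4. Signals under the floor were not ordered, which leaves out Reg3a and Reg3g in both pools and the other probe set of Reg3b in the Ad-control pool. Reg4 thus stood 3rd in the Ad-control pool and 6th in the Ad-PDK4 pool, with almost the same signal in both. Some neighbours in these orders lay closer than the probe set SD of 0.35. These were Reg3d and the _s_at probe set of Reg3b in both pools (0.045 and 0.15), and Reg1 and Reg2 in the Ad-PDK4 pool (0.27). Reg1 and Reg2 together made up 59.6% of the summed signal of the 7 members in the Ad-control pool and 90.4% in the Ad-PDK4 pool. For Reg3b the sum took the _s_at probe set, although the other was brighter in the Ad-PDK4 pool. That sum was 877 in the Ad-control pool and 6165 in the Ad-PDK4 pool.

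Of the 5 members above the floor on both arrays, 4 were higher by 2-fold or more in the Ad-PDK4 pool and 0 were lower by as much. Of all 12121 genes above the floor on at least 1 array, 3.58% were 2-fold or more higher and 0.891% 2-fold or more lower. The median log2 difference of the 5 members was 1.14, against 0.031 over all those genes. These counts describe the comparison that the family was chosen on and support nothing further. The count depends on the floor, and was 2 of 2 when the floor was raised to the 70th percentile, where only Reg1 and Reg2 remain. It was 2 of 7 when 50 was added to each signal in place of a floor, with Reg3b at 0.75 and Reg3d at 0.83.

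The transcripts whose products are secreted with Reg1 and Reg2 by acinar cells differed in the same direction. Of 42 listed acinar secretory genes 31 were matched to a probe set, and 28 were above the floor on at least 1 array. Of these, 24 were higher by 1.5-fold or more in the Ad-PDK4 pool and 0 were lower by as much, where 11.0% and 5.58% of all genes were. Their median log2 difference was 2.71. Members measured on both arrays were highest for Ctrb1 (chymotrypsinogen, 3.46), Cela3b (an elastase, 3.35) and Pnliprp1 (a lipase-related protein, 3.32). The lowest were Gnmt (a methyltransferase also abundant in hepatocytes, -0.27), Klk1 (a kallikrein, -0.06) and Ctrc (0.19). The 3 other probe sets of Klk1 gave log2 differences of 2.05, at least 2.95 and at least 3.95, so its value is not settled. Genes with a bound of at least 2-fold were Spink1, Gp2, Cuzd1, Pdia2 and Tff2, from 5.86-fold to 2.22-fold.

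By the probe set used for each gene, Reg2 exceeded all 21 acinar secretory genes measured on both arrays in its log2 difference. Reg1 exceeded 17 of them. The lead of Reg2 (3.68) over the highest, Ctrb1 (3.46), was smaller than the probe set SD. Another probe set of Klk1 gave a bound of at least 3.95, so the place of Reg2 above these genes is not settled. Reg2 lay 0.79 and Reg1 0.35 above the median of the 21 genes, 2.90. Reg3d and Reg3b, by contrast, lay below that median by 1.75 and 1.85 on the log2 scale, with 18 of the 21 genes above each. For Reg3b this holds for its _s_at probe set, while the other probe set gave a bound of at least 1.82 and its place among the acinar genes is not settled. Reg4 had 20 of the 21 above it. Only Gnmt was lower.

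The summed signal of the 31 matched acinar secretory genes was 84476 in the Ad-control pool and 183239 in the Ad-PDK4 pool. Without Gnmt, left out after its values were seen, it was 17109 and 127792, a ratio of 7.47, beside the ratio of 7.03 for the summed Reg signal. Of 7 defining acinar markers 5 were matched to a probe set, and all 5 were above the floor on both arrays. Ctrb1, Cela3b, Cpb1, Cpa1 and Prss2 ranged from 608 to 1792 in the Ad-control pool and from 6633 to 18087 in the Ad-PDK4 pool. The part of the acinar transcripts in the differences of Reg1 and Reg2 was not tested. In pooled tissue, more cells of a type and more RNA per cell cannot be told apart.

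**Figure D3:**
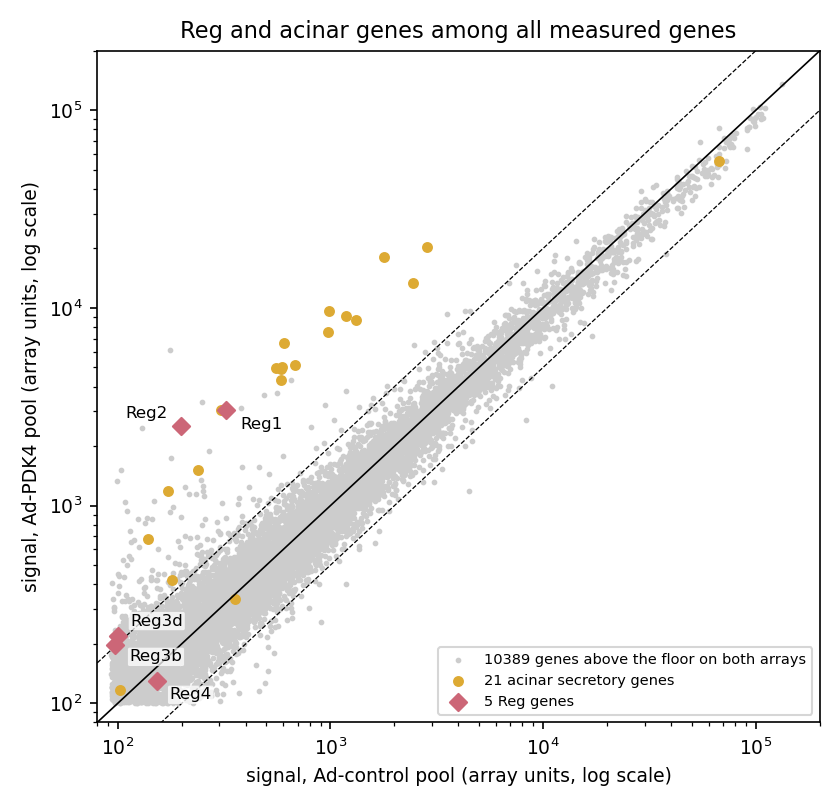
Signal in the Ad-control pool (horizontal axis) against the Ad-PDK4 pool (vertical axis), both in array units on log scales, for 10389 genes above the floor on both arrays (grey), 21 acinar secretory genes (yellow) and 5 Reg genes (red diamonds). The solid line marks equal signal and the dashed lines 2-fold; Reg1 and Reg2 lie among the acinar genes far above the upper dashed line, Reg3b and Reg3d lie just above it at the dim end, and Reg4 lies near the line of equal signal.

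The transcription factors most specific to acinar cells could not be measured beside Reg1 and Reg2. Ptf1a (61.1 and 39.6), Rbpjl (3.3 and 31.0) and Bhlha15 (55.7 and 75.9) were under the floor in both pools. Of 9 matched factors, 5 were above the floor on at least 1 array, and their median was -0.18. Among these 5, 1 was higher by 1.5-fold or more and 0 lower, where 11.0% and 5.58% of all genes were. Gata6 was the highest at 0.79 (0.25 on its lowest probe set) and Gata4 the lowest at -0.57 (-0.28 on its other probe set). With the median over probe sets, 0 of the factors were at least 1.5-fold higher. Gata6 and Gata4 also function outside the pancreas.

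By list median, markers of the other tissues that make Reg proteins lay closer to 0 than Reg1 and Reg2. Islet markers gave 1 of 5 measured genes at least 1.5-fold higher and 0 lower (11.0% and 5.58% of all genes), with a median of 0.0045. That median is the value of Pyy, a bound from signals of 100.6 in the Ad-control pool and 22 in the Ad-PDK4 pool. It therefore does not measure a difference. Over the 2 genes above the floor on both arrays the median was -0.25. The higher gene was Ins2 (insulin), under the floor in the Ad-control pool at 16.3 and at 156 in the Ad-PDK4 pool, at least 1.68-fold higher. Gcg and Sst, the hormones of alpha and delta cells, were under the floor in both pools, and 15 of the 20 matched islet genes were. Their summed signal was 139736 in the Ad-control pool and 124533 in the Ad-PDK4 pool, most of it from Ttr and Slc2a2, which hepatocytes also make.

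Intestinal epithelium, the main site of Reg3g and Reg3b, gave 0 of 8 measured markers past 1.5-fold in either direction, with bounds counted as values. Of all genes, 11.0% were higher and 5.58% lower by as much. The median of the intestinal markers was -0.0090. Fabp2, a fatty acid binding protein that was bright in both pools, was the highest of those measured on both arrays at 0.57 and Lgals4 the lowest at -0.21. Alpi, an intestinal phosphatase, was under the floor in the Ad-PDK4 pool, with a bound of -0.51. Its signals were 143.6 in the Ad-control pool and 28.1 in the Ad-PDK4 pool, so it may have passed 1.5-fold. Cdx1, Cdx2 and Muc2 were under the floor in both pools, as were 16 of 24 matched markers, and the summed signal was 15755 and 19721. Stomach markers gave 3 of 8 at least 1.5-fold higher and 0 lower (11.0% and 5.58% of all genes), with a median of 0.38. The 3 higher ones were Ctse (a cathepsin, 0.68), Cym (a bound of 0.69) and Tff2 (a trefoil factor also listed with the acinar genes). The summed signal of the stomach markers was 1757 in the Ad-control pool and 2481 in the Ad-PDK4 pool. Gkn1 and Atp4a were under the floor in both.

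Ductal markers gave 1 of 11 at least 1.5-fold higher and 1 lower (11.0% and 5.58% of all genes), with a median of -0.22. The higher one was Car2, a carbonic anhydrase, by 2.83-fold, and the lower one Cdh1, E-cadherin, with a log2 difference of -0.61. Krt7 and Cftr were under the floor in both pools, and the summed signal of the ductal markers was 22447 and 20338. Krt19 was under the floor in the Ad-PDK4 pool only, with a bound of -0.28. Its signals were 122.9 in the Ad-control pool and 16.9 in the Ad-PDK4 pool, so it may have passed 1.5-fold. Hepatocyte markers gave 0 of 20 past 1.5-fold in either direction (11.0% higher and 5.58% lower among all genes) and a median of -0.15. Their summed signals were 1170120 and 1073310 in the Ad-control and Ad-PDK4 pools. The part of any of these lists in the Reg differences was not tested.

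**Figure D4:**
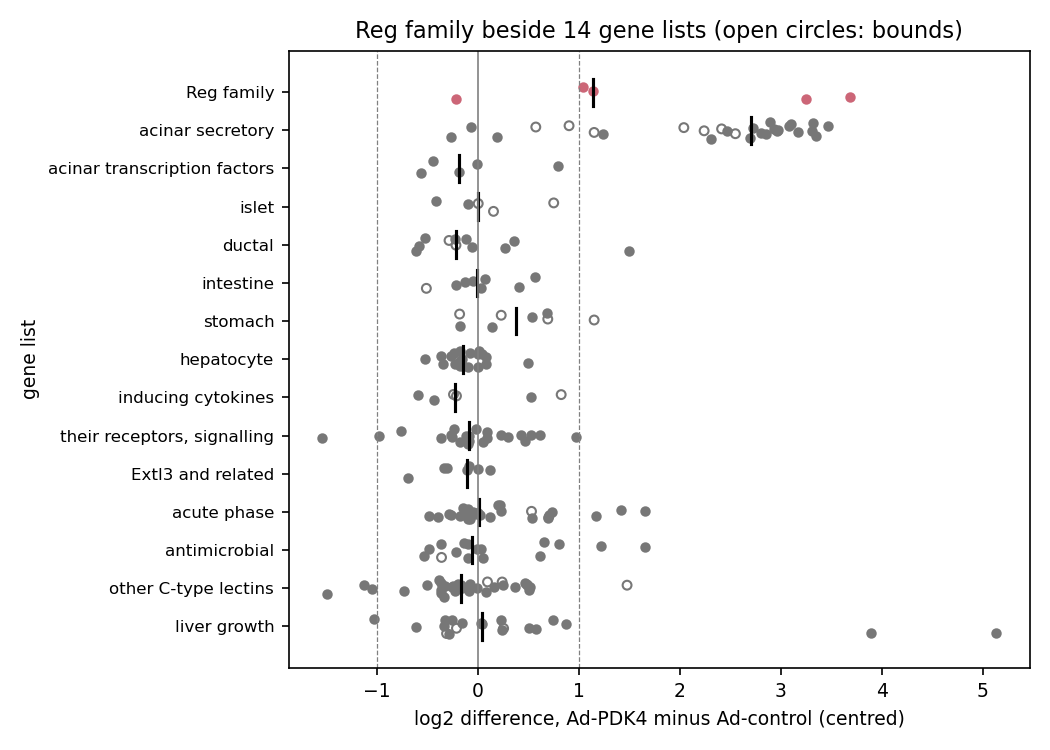
Centred log2 difference, Ad-PDK4 minus Ad-control (horizontal axis), of each gene above the floor on at least 1 array, for the Reg family (red) and 14 gene lists (grey); open circles are bounds, vertical bars list medians and dashed lines 2-fold. By the probe set used for each gene, Reg1 lies among the highest acinar secretory genes and Reg2 above them by less than the probe set SD. The medians of the 13 lists other than acinar secretory, with bounds counted as values, lie between -0.23 and 0.38.

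The cytokine signals known to induce Reg genes were mostly dim. Of 12 matched cytokine genes, 6 were under the floor in both pools, among them Il6 at 8.8 and 38.3. Of the 6 others, 1 was at least 1.5-fold higher (Clcf1, a bound of 0.83) and 1 was lower (Ctf1, cardiotrophin 1, -0.59). Of all genes, 11.0% were higher and 5.58% lower by as much. The median of the 6 was -0.23. That median lies between the bounds of Il17a (-0.24) and Tnf (-0.21), both under the floor in the Ad-PDK4 pool. Tnf had signals of 116.8 in the Ad-control pool and 13 in the Ad-PDK4 pool, so it may also have passed 1.5-fold. Over the 3 genes above the floor on both arrays the median was -0.43. Il1b differed by -0.43 and Il33 by 0.53. Il22 was not among the named probe sets and is not analysed here.

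Receptors and signal proteins downstream of those cytokines were measured more fully. Of 23 genes, 2 were higher by 1.5-fold or more and 3 lower, where 11.0% and 5.58% of all genes were. The median of the 23 was -0.087. Stat3, which carries the interleukin 6 signal to Reg promoters, differed by 0.093, and its feedback inhibitor Socs3 by -0.26. Stat5a (0.98) and Il6ra (0.62, with -0.10 on its other measured probe set) were the highest. Cish, a suppressor of cytokine signalling, was the lowest at -1.54, followed by Osmr, the oncostatin M receptor, at -0.98, and Il17ra at -0.76. Another probe set of Il17ra gave 0.16, and those of Stat3 and Socs3 also lay on both sides of 0, so these directions are not settled.

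Acute phase genes, the main targets of STAT3 in hepatocytes, were partly higher in the pool with the higher Reg signals. Of 28, 7 were at least 1.5-fold higher and 0 lower, where 11.0% and 5.58% of all genes were, and the median was 0.012. Without probe sets of the suffixes _s_at, _x_at and _a_at, 4 of 23 were at least 1.5-fold higher. Lcn2 (lipocalin 2, 1.66), Orm2 (an orosomucoid, 1.42) and Saa3 (serum amyloid A3, 1.17) were the highest, each above the log2 difference of Reg3d and below that of Reg1. Hamp (hepcidin, -0.48), Crp (-0.40) and Itih4 (-0.28) were the lowest.

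Extl3, a glycosyltransferase reported as a receptor for Reg proteins, had a signal of 413 in the Ad-control pool and 444 in the Ad-PDK4 pool, a log2 difference of 0.12. Of the 7 genes in its list (exostosins, Il6st and Egfr), 0 were at least 1.5-fold higher and 1 was lower, Extl2 at -0.69. Of all genes, 11.0% were higher and 5.58% lower by as much. The second probe set of Extl2 gave 0.42, so its direction is not settled. The list median was -0.11.

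Of 31 other genes with C-type lectin domains, 26 lay within 1.5-fold, as did most genes on the arrays. Among the 26 were Clec3b, Sftpa1 and Cd209a, whose values are bounds, so they may differ by more. Outside the 26, 1 was higher by 1.5-fold or more and 4 were lower, where 11.0% and 5.58% of all genes were. The median of all 31 was -0.16. The higher one was Cd209f, with a bound of 2.79-fold. Clec2d (-1.49), Clec4f (a Kupffer cell lectin, -1.13) and Clec2h (-1.05) were the lowest. The secreted lectins made by liver, Mbl1 and Mbl2, differed by -0.36 and 0.25.

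The genes nearest to each member in its pair of log2 signals over the 2 arrays were also listed, by Euclidean distance. For Reg1 the nearest was Pnliprp1, a pancreatic gene, at a distance of 0.078, followed by the mitotic genes Mad2l1 (0.24) and Cdca3 (0.40). For Reg2 they were Cdca3 (0.51), D17H6S56E-5 (0.57) and Kif22, a mitotic kinesin (0.61). The nearest genes of Reg3b were A4gnt, Htra3 and Ubxn11, those of Reg3d were Mgat5, Psapl1 and Smyd1, and those of Reg4 were Mypop, Rps6kc1 and Ccdc74a. Their distances were between 0.0066 and 0.045, in a crowded part of the signal range. With 2 arrays such likeness describes a pair of signals and nothing more.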

How the data were processed

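Biotin-labelled cRNA from 10 ug of pooled liver RNA per group was hybridized by the Affymetrix procedure, per the labels. The deposited values are linear signal intensity, 1 per probe set, for 45101 probe sets; summary software, background correction and scaling: not given in the sources used here. Without the top and bottom 2% of probe sets the mean signal was 499.2 for Ad-control and 499.5 for Ad-PDK4, so differences are relative to the other transcripts of each pool. Gene names came from the platform annotation, updated through Entrez identifiers with the RefSeq table (GRCm38.p6): of 35890 annotated probe sets 34958 carried 1 symbol and 932 several, which were not named. All 7 members matched, also in the RefSeq promoter table.

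Signals were put on the log2 scale and centred (shift -0.01 over 20151 probe sets). For a gene with several probe sets, the one with the highest mean log2 signal was used. Where a single array was under the floor, the difference is a bound against that floor. Bounds entered the counts and medians of lists as values, so a gene counted within 1.5-fold by its bound may differ by more. Besides the members, the text names the 3 or fewer highest and lowest genes of each list, bounds of at least 2-fold, and a set of factors, receptors and cytokines; other genes were chosen after their values were seen. Members and lists were chosen with earlier results of these data known. Calculations used Python 3.11.15, pandas 2.3.3, statsmodels 0.14.6 and Biopython 1.88, and were tested on simulated data. Alternatives changed the floor, the centring, the pseudocount and the choice of probe set.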

Additional observations from a re-analysis of the deposited data

How the results depend on the processing

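Reg1 and Reg2 were higher in the Ad-PDK4 pool under all 10 alternatives, with log2 differences from 3.04 to 3.79 for Reg1 and from 3.18 to 4.22 for Reg2. Reg3b and Reg3d were higher under the 9 alternatives that gave them a value (0.75 to 1.82 and 0.83 to 1.69). A floor at the 70th percentile left 2 members above it, both at least 2-fold higher, with a family median of 3.22. It gave 3.18 for Reg2, whose Ad-control signal is under that floor, so that its value is a bound, and -0.58 for the median of the inducing cytokines, of which 1 was left. With no floor the family median was 1.91, Reg3a gave 3.84, Reg3g 1.91 and the islet median was 0.49, values that rest on signals too dim to measure. With 50 added to each signal and no floor, 2 members were at least 2-fold higher, the median was 0.75, Reg3a gave 0.71 and Reg3g 0.14. Reg3b gave 1.43 when its probe sets were combined by their median and 1.82 without its _s_at probe set, which also put the family median at 1.82.

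Centring on the poly-A spike-ins added 0.54 to every value. The family median was then 1.69, with Reg1 at 3.79, Reg2 at 4.22, Reg3b at 1.59, Reg3d at 1.69 and Reg4 at 0.32. List medians became 0.44 for the Extl3 list, 0.32 for inducing cytokines, 0.46 for their receptors, 0.55 for acute phase genes, 3.25 for acinar secretory genes, 0.36 for acinar factors, 0.55 for islet, 0.33 for ductal, 0.53 for intestine, 0.93 for stomach, 0.40 for hepatocytes, 0.38 for C-type lectins, 0.49 for antimicrobial genes and 0.58 for growth genes. All other family and list values, 176 in number, moved by less than the probe set SD or, for the count of members, by 1.5 times or less. Of the counts of list members past 1.5-fold, 191 stayed within 1.5 times and 89 did not. No paired analysis was possible because each group is 1 array of 1 pool, and for the same reason no replicate could be left out. The dim Reg3a, Reg3g, Reg3b and Reg3d are limited by signal over background.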

Other observations

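Reg3b and Reg3g act as antibacterial proteins, and other secreted antimicrobial genes were listed beside them. Of 16 measured, 5 were higher by 1.5-fold or more in the Ad-PDK4 pool and 0 were lower (11.0% and 5.58% of all genes). The median log2 difference of the 16 was -0.053. Lcn2 (1.66), Defb1 (a beta-defensin, 1.22) and Ngp (a neutrophil granule protein, 0.81) were the highest, and Hamp2 (-0.53), Hamp (-0.48) and Lyz2 (lysozyme 2, -0.36) the lowest of those measured on both arrays. The log2 difference of Defb1 was close to that of Reg3d (1.14).

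The Reg genes take their name from regenerating pancreas, and genes of liver growth were listed for that reason. Of 20 measured, 4 were higher by 1.5-fold or more and 2 were lower (11.0% and 5.58% of all genes). The median of the 20 was 0.042. Cdc20 and Mki67, genes of dividing cells, differed by 5.13 and 3.89, while Btc (betacellulin) gave 0.87. The 3 probe sets of Cdc20 ran from 1.48 to 5.13, and Mki67 exceeded Reg2 (3.68) by less than the probe set SD. Whether either differed more than Reg2 is not settled. The lowest were Ccnd1 (-1.02), Hgf (hepatocyte growth factor, -0.62, with 0.58 on another probe set) and Egfr (-0.33, with probe sets from -0.65 to 0.41), among genes measured on both arrays.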
